A study of Mus musculus with 28 samples.

Results

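Phox2a, Hand2, Gata3, Th, Dbh, Slc18a2 and Slc6a2 are 7 genes that together define a sympathetic neuron that makes and releases noradrenaline. They were followed by bulk poly-A RNA sequencing through 7 stages of mouse peripheral nerve maturation, with 4 libraries per stage and 28 in all. E and P stand for embryonic and postnatal day, and the labels round down the embryonic ages, which the study's design puts between days 13 and 14 and between days 17 and 18. All 7 genes had their highest mean level at E13, as did 32.4% of all genes tested, and were 9.89-fold to 53.8-fold lower at E17. Slc6a2 was the only one of them to pass the test as higher at P60 than at P1, a result that 20.3% of all genes tested also gave. The genes were chosen by name as identity genes of this neuron type, by a rule that uses no measured value, but with earlier results of these data known. They are 7 of the 41605 gene identifiers in the count table, and all 7 were among the 17700 genes with enough counts to be tested. Phox2a, Gata3 and Slc18a2 passed the filter on low counts only through E13 libraries, since 4 of the 7 passed when those libraries were left out. A gene that passes only through 1 stage has to differ there, so counts of members called between E13 and a later stage are a description and support nothing further.

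All mice were wild-type C57BL/6J, and no group carried a transgene or a treatment. The E13 libraries held various nerves taken distal to the dorsal root ganglia and pooled from 2 embryos of one sex, although the labels name sciatic nerve at each stage. The E17 libraries held sciatic nerves of 2 pooled embryos of one sex, and the P1, P5, P14, P24 and P60 libraries those of a single mouse. Epineurium and perineurium, the outer sheaths, were described as removed from the sciatic nerves, and such stripping was not described for the E13 nerves. Each stage had 2 male and 2 female samples, but the labels of single libraries do not give the sex. Age, kind of nerve and dissection therefore change together between E13 and E17 and cannot be told apart.

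Sympathetic neurons arise from the neural crest, the same embryonic source as Schwann cells and sensory neurons, and their cell bodies lie in ganglia beside the spine and near the organs. Their axons run in mixed nerves such as the sciatic nerve on the way to blood vessels, sweat glands and skin. Phox2a, Hand2 and Gata3 encode transcription factors of the sympathetic programme, Th and Dbh encode enzymes of noradrenaline synthesis, Slc18a2 encodes the transporter that fills synaptic vesicles, and Slc6a2 the transporter that takes released noradrenaline back up. Most neuronal RNA stays in the cell body, and a piece of nerve without a ganglion holds axons and the cells around them. In bulk RNA, fewer cells of a type and less RNA per cell cannot be told apart.

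Promoter windows from RefSeq (GRCm38.p6) were at hand for 6 of the 7 genes, spanning 250 bases before to 50 bases after the annotated start. Those of Th, Slc18a2 and Dbh are shown because these genes encode successive steps from synthesis to storage of the transmitter and because their windows hold motifs that are textbook features of catecholamine genes. Capitals mark TGACGTCA, the cyclic AMP response element, in Th (chr7:142899946-142900245, minus strand) and in Slc18a2 (chr19:59260628-59260927, plus strand). In Dbh (chr2:27165257-27165556, plus strand) they mark ATTA, the core that homeodomain proteins such as Phox2a bind.
Th: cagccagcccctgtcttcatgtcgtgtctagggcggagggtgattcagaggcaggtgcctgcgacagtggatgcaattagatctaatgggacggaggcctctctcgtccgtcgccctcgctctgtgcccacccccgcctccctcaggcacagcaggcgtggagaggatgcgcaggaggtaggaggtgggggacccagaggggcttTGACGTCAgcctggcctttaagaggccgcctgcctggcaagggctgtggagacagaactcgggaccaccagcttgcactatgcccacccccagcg
Slc18a2: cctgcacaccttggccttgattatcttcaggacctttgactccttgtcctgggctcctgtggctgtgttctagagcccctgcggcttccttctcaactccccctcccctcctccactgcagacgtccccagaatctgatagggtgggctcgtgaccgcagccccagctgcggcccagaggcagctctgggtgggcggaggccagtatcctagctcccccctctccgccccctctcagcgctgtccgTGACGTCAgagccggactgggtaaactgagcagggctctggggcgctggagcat
Dbh: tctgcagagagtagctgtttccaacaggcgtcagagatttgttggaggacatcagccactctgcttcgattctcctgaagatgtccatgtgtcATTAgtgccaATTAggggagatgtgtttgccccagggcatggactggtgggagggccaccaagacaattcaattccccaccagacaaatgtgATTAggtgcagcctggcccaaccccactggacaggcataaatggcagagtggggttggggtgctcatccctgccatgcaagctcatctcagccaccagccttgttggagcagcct
With the annotated start counted as 0, the element began at position -45 in Th and at position -4 in Slc18a2, and ATTA began at -157, -147 and -65 in Dbh. On either strand, TGACGTCA was present in 1.79% of 32851 windows of the same length and ATTA in 58% of them. The E-box CANNTG, a core that Hand2 and its partners bind, was present in 72.3%, and GATA, the core that Gata3 binds, in 57.9%. The Hand2 window held 5 matches to ATTA and the Slc18a2 window 3 matches to GATA. No TGACGTCA lay in the windows of Phox2a, Hand2, Gata3 or Dbh. These matches are descriptions of letters and show no binding.

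Libraries held 13899895 to 37662780 counts in genes. Levels are given as CPM, counts set against library sizes scaled by TMM (trimmed mean of M values), so that 1 count was worth 0.0286 to 0.0788 CPM, and errors are SD over the 4 libraries of a stage. E13 replicates 1 and 4 and P1 replicate 1 stood apart from the other 25 libraries by a trend of their values on transcript GC content, with slopes of -0.93, 0.73 and -0.43 log2 units per 10 percentage points against -0.16 to 0.20. Markers of the nerve's own glia, the Schwann lineage, summed to 470 to 987 CPM at E13 and 4849 to 5423 CPM at E17, with no gene of that list at 0 at either stage.

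**Figure D1:**
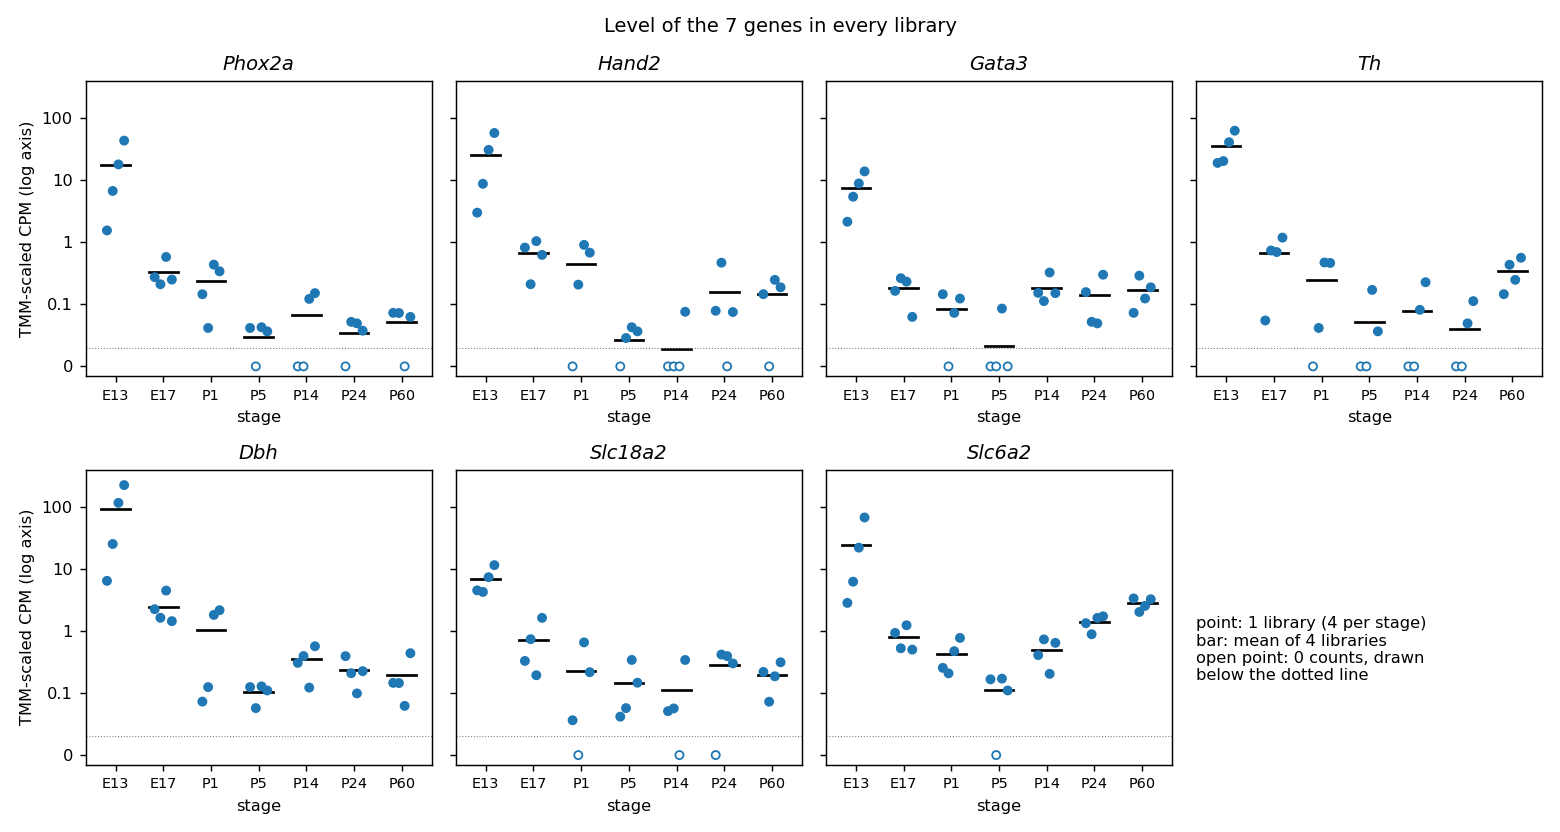
Level of each of the 7 genes in each of 28 libraries, as TMM-scaled CPM on a log axis against stage. Points are libraries, bars are means of 4, and open points below the dotted line are libraries with 0 counts; E13 libraries lie highest for each gene, with overlap only between E13 and P60 for Slc6a2.

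Phox2a (ENSMUSG00000007946, chr7:101818313-101822726, plus strand, GRCm38 as in GENCODE M21) encodes a homeodomain factor needed for noradrenergic neurons. At E13 its 4 libraries held 1.56, 6.74, 18.1 and 43.8 CPM, in the order of replicates 1 to 4. At E17 they held 0.275, 0.211, 0.582 and 0.251 CPM. The stages did not overlap, although the E13 libraries differed among themselves 28.1-fold. The log2 fold change, E17 minus E13, was -5.64 ± 0.72 (SE; edgeR quasi-likelihood test, Benjamini-Hochberg adjusted p = 1.52e-07), a 49.8-fold lower level. From P5 on the gene was close to its detection limit, with 3 counts over the P5 libraries, 7 over those of P14, and 3 each over those of P24 and P60. Phox2a shares 95 exonic bases with Inppl1 on the opposite strand, which had 45754 counts in all against 1619 for Phox2a. The library kit kept strand, but whether the counting used it is not stated, so reads of this stretch are uncertain. Inppl1 averaged 63.8 CPM at E13 and 78.6 CPM at E17.

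Hand2 (ENSMUSG00000038193, chr8:57320983-57324633, plus strand), a basic helix-loop-helix factor that maintains the noradrenergic state, held 3.01, 8.80, 31.0 and 58.1 CPM in E13 replicates 1 to 4. At E17 it held 0.825, 0.211, 1.05 and 0.628 CPM, again with no overlap. It was lower at E17 with a log2 fold change of -5.17 ± 0.75 (SE; edgeR, adjusted p = 1.31e-06). Its antisense partner Hand2os1 shares 461 exonic bases with it and had 2771 counts in all against 2406 for Hand2. Hand2os1 averaged 27.8 CPM at E13 and 1.49 CPM at E17. Without knowledge of the strand setting, the reads of the pair cannot be fully assigned.

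Gata3 (ENSMUSG00000015619, chr2:9857078-9890034, minus strand) encodes a zinc finger factor required for sympathetic differentiation and survival, and also for T lymphocytes. Its E13 libraries held 2.15, 5.45, 8.92 and 13.9 CPM and its E17 libraries 0.165, 0.264, 0.233 and 0.0628 CPM. It was lower at E17 in each library, by a log2 fold change of -5.30 ± 0.60 (SE; edgeR, adjusted p = 1.85e-08). Markers of T cells and innate lymphoid cells, another source of Gata3, summed to 0.684 to 2.18 CPM over 7 genes at E13 and 0.935 to 2.39 CPM at E17. Gata3 shares 77 exonic bases with 9230102O04Rik on its own strand, which had 28 counts in all against 778 for Gata3.

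Th (ENSMUSG00000000214, chr7:142892752-142931128, minus strand) encodes tyrosine hydroxylase, the rate-limiting enzyme of catecholamine synthesis. The E13 libraries held 19.1, 20.5, 41.3 and 63.3 CPM. The E17 libraries held 0.055, 0.739, 0.698 and 1.19 CPM, so that replicate 1 with 1 count lay far below the others. The difference was -5.75 ± 0.61 on the log2 scale (SE; edgeR, adjusted p = 5.62e-09), the largest fitted fall of the 7 genes, though the differences between their estimates were not tested. The E13 libraries differed 3.31-fold in Th, a narrower range than in Phox2a, Hand2, Dbh or Slc6a2.

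Dbh (ENSMUSG00000000889, chr2:27165233-27183200, plus strand) encodes dopamine beta-hydroxylase, which turns dopamine into noradrenaline. Its E13 libraries held 6.46, 25.4, 117 and 226 CPM, which is 35.0-fold between the lowest and the highest. At E17 they held 2.25, 1.64, 4.5 and 1.45 CPM. The lowest E13 library thus lay above the highest E17 library by a small margin, and the log2 fold change was -5.21 ± 0.77 (SE; edgeR, adjusted p = 1.58e-06).

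Slc18a2 (ENSMUSG00000025094, chr19:59260896-59296012, plus strand) encodes the vesicular monoamine transporter of neurons, which mast cells and platelets also use to store amines. Its E13 libraries held 4.54, 4.28, 7.40 and 11.6 CPM, and its E17 libraries 0.33, 0.739, 0.194 and 1.63 CPM. The log2 fold change of -3.31 ± 0.68 (SE; edgeR, adjusted p = 0.000156) was the smallest of the 7. In E17 replicate 4, the library with the highest Slc18a2, the 9 mast cell markers summed to 128 CPM, against 36.3 to 50.2 CPM in the other E17 libraries. Only 1 of the 9 markers was at 0 in that library, and the part of mast cells in the Slc18a2 value was not tested.

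Slc6a2 (ENSMUSG00000055368, chr8:92960079-93001667, plus strand) encodes the noradrenaline transporter of the plasma membrane. Its E13 libraries held 2.85, 6.26, 22.2 and 68.0 CPM and its E17 libraries 0.935, 0.528, 1.24 and 0.503 CPM. The stages did not overlap, and the log2 fold change was -4.90 ± 0.69 (SE; edgeR, adjusted p = 7.07e-07).

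All 7 genes were therefore lower at E17 than at E13 by the rule used throughout, an adjusted p under 0.05 over all genes tested together with at least a 2-fold change. The background was high, since 35.5% of all genes tested were called between these stages, 21.2% of all genes tested were called and lower at E17, and 25% had E17 libraries that all lay below the E13 libraries. The median log2 fold change of the 7 was -5.21 against -0.08 for all genes tested. Each of the 7 calls was kept when each E13 or E17 library was left out in turn. Phox2a, Gata3 and Slc18a2 passed the filter on low counts only through E13 libraries, so the median and these calls are a description. The lowest E13 values came from replicate 1 in 6 genes and from replicate 2 in Slc18a2.

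**Figure D2:**
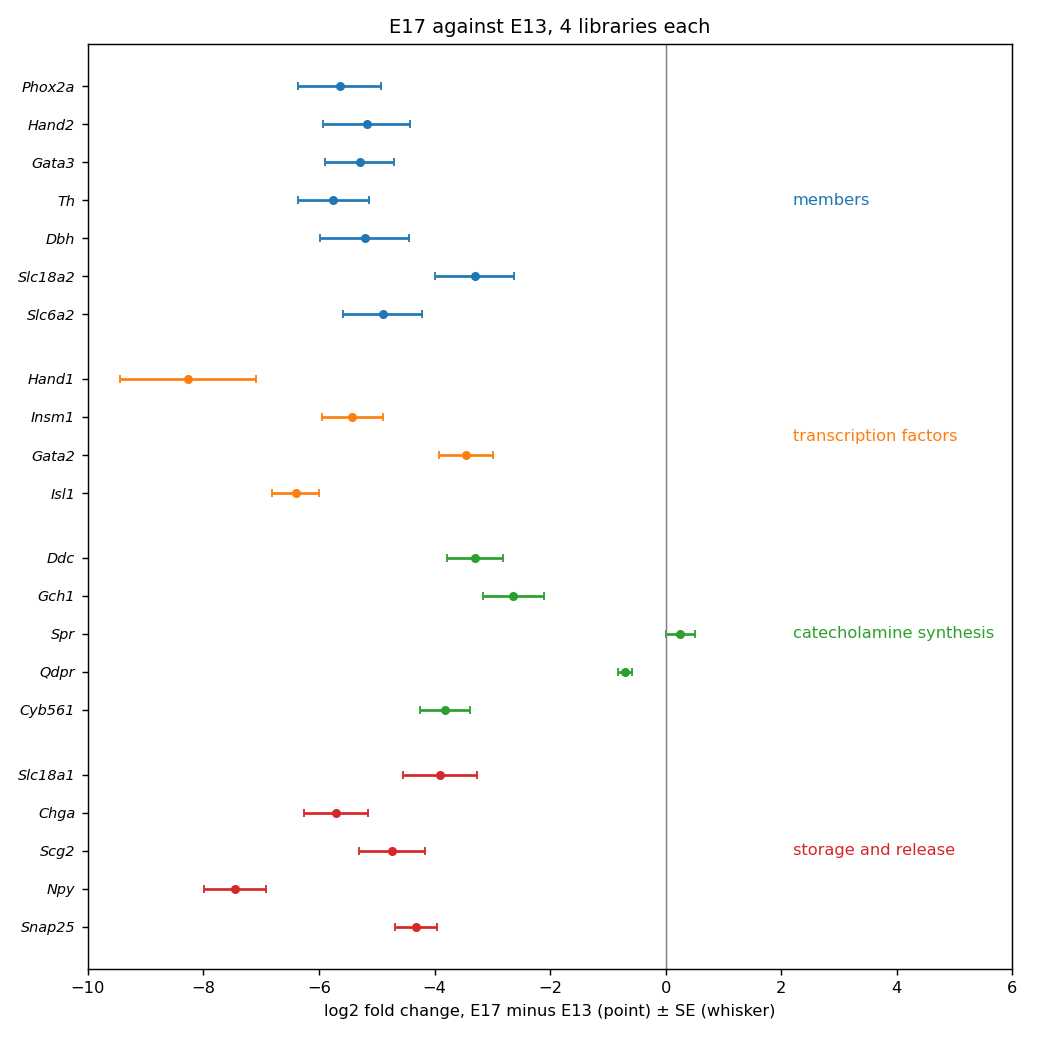
Log2 fold change from E13 to E17 with its SE for the 7 genes and for 14 genes that the text names from the lists of transcription factors, catecholamine synthesis, and storage and release. The 7 genes lie between -5.75 and -3.31, and Spr and Qdpr at 0.25 and -0.70; the fitted value of Hand1 depends on the prior count because it had 2 counts in all at E17.

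Levels of different genes can be set side by side only per length, as CPM divided by the exon length in kilobases (RPKM). On this scale the E13 means were 34.8 for Dbh, 15.2 for Th, 10.7 for Hand2, 8.62 for Phox2a, 3.95 for Slc6a2, 1.91 for Gata3 and 1.33 for Slc18a2. At P60 the order had another head, with an RPKM of 0.445 for Slc6a2, 0.148 for Th, 0.0736 for Dbh and at most 0.062 for the other genes. The order of the E13 means was not that of each library. In E13 replicates 1 to 4, 6, 5, 4 and 4 of the other genes lay above Slc6a2, and Th lay above Dbh in replicate 1, at 8.08 against 2.40 RPKM. In each of the P60 libraries Slc6a2 had the highest RPKM of the 7.

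The E13 libraries did not share one level of this set. Summed over the 7 genes, replicates 1 to 4 held 39.7, 77.4, 246 and 485 CPM. Replicates 3 and 4 were the highest of the 4 libraries in all 7 genes, which also held for 24.4% of all genes tested. This order was noticed after the values were seen and was given no test. Between replicates 4 and 1 the ratio, computed after adding 0.1 CPM, was 34.5 for Dbh, 26.5 for Phox2a, 23.1 for Slc6a2, 18.7 for Hand2, 6.24 for Gata3, 3.30 for Th and 2.52 for Slc18a2, against a median of 0.970 over all genes tested. Those are also the libraries with the steepest GC trends, of opposite sign. After each library's GC trend was removed, the ratio was 16.1 for Dbh, 7.49 for Phox2a, 21.5 for Slc6a2, 6.77 for Hand2, 6.19 for Gata3, 1.86 for Th and 3.54 for Slc18a2. Replicates 3 and 4 were still the highest in 7 of 7 genes, against a background of 24% of genes.

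**Figure D3:**
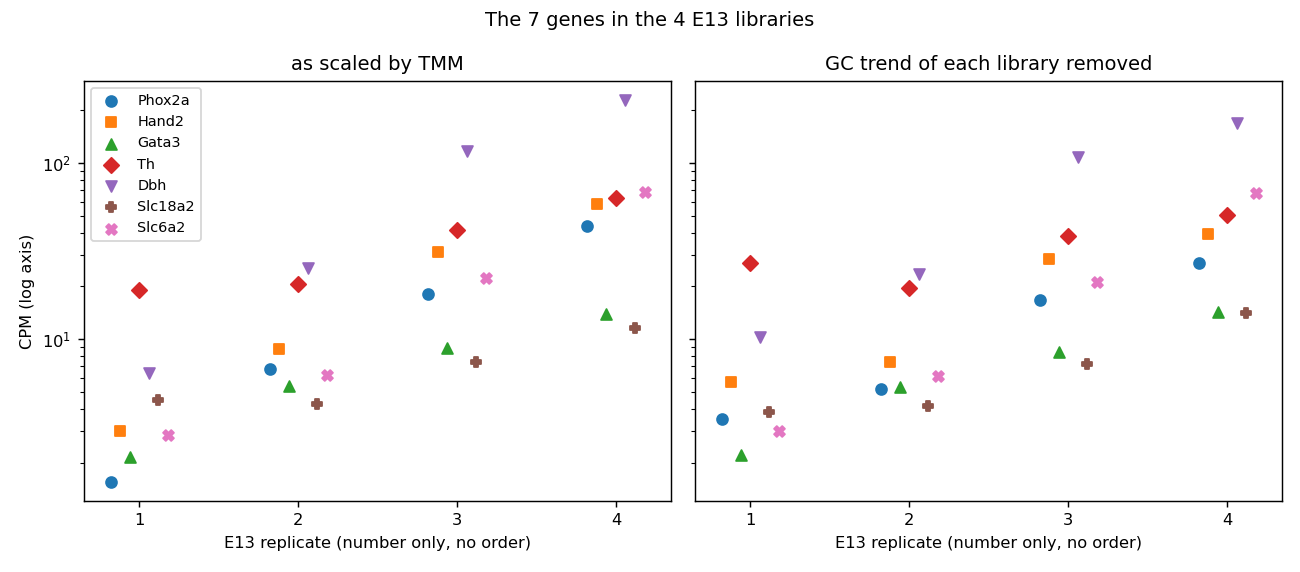
The 7 genes in the 4 E13 libraries, as CPM on a log axis against replicate number, before (left) and after (right) removal of each library's GC trend. Dbh ran from 6.46 to 226 CPM before and from 10.3 to 167 CPM after removal, and the replicate numbers carry no order.

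Markers of neurons in general did not follow the same range at E13. The 10 pan-neuronal markers summed to 3947, 2638, 4331 and 4576 CPM in replicates 1 to 4, and none of them was at 0 in any of these libraries. The 13 sensory neuron markers summed to 423, 229, 246 and 179 CPM, which put replicate 1 highest and replicate 4 lowest. Part of these sums was Ntrk3, which Schwann cells also express. Adrenal cortex markers summed to 1.54 to 2.53 CPM over 6 genes at E13, of which 2 had enough counts to be tested. Pnmt, which turns noradrenaline into adrenaline in chromaffin cells, had 21 counts over the 4 E13 libraries. Chromaffin cells use several of the same genes as sympathetic neurons, and their part in these levels was not tested. Hand1, a factor of sympathetic neurons and of the heart, ran from 0.431 to 23.2 CPM at E13. The part of dissection, cell make-up and GC trend in the spread between E13 libraries was not tested.

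**Figure D4:**
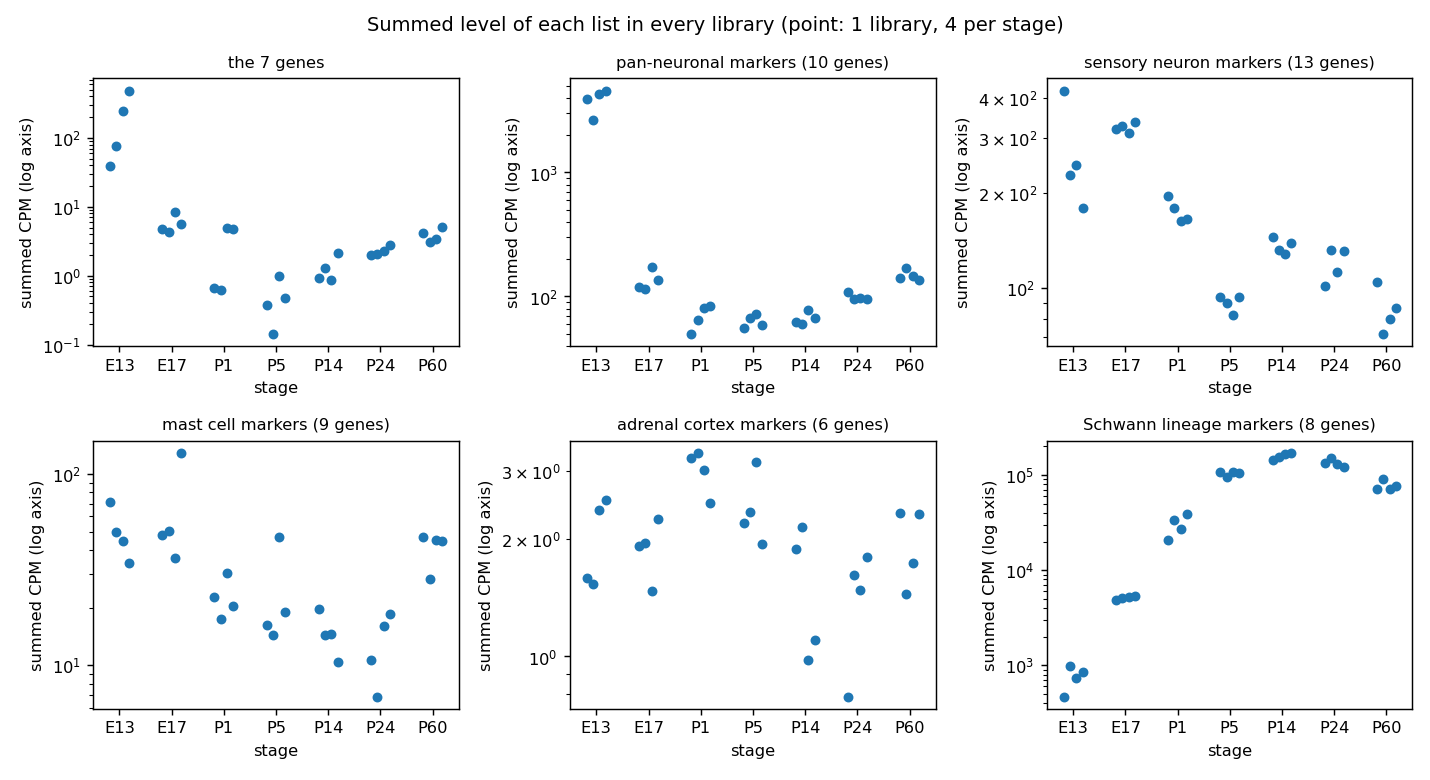
Summed CPM of the 7 genes and of 5 marker lists in every library, on log axes that differ between panels, with 1 point per library and 4 per stage. At E13 the 7 genes spread from 39.7 to 485 CPM while the pan-neuronal markers spread from 2638 to 4576 CPM.

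Other genes of the noradrenergic pathway were followed from fixed lists. Of 7 further transcription factors of the programme all 7 were called lower at E17, with a median log2 fold change of -5.42 against -0.08 for all genes tested. Isl1, which sympathetic and sensory neurons share, went from 67.2 ± 29.8 to 0.756 ± 0.364 CPM. Gata2, also a factor of blood and endothelial cells, fell by 3.45 on the log2 scale. Of the 8 genes of catecholamine synthesis 7 were tested and 5 were called lower, with a median of -2.64. Ddc, which makes dopamine from the product of Th, went from 26.4 ± 23.8 to 2.67 ± 0.204 CPM (edgeR, adjusted p = 1.42e-06), and the vesicle electron carrier Cyb561 fell by 3.82 on the log2 scale. Of the 5 genes that make or recycle the cofactor of Th, Gch1 and 2 more were called lower, with log2 fold changes of -2.64, -2.67 and -1.10. Spr and Qdpr, which act in the same pathway and are used by many cells, were not called, with log2 differences of 0.25 and -0.70.

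All 9 genes of vesicle storage and release were called lower at E17, with a median of -4.32. Npy, a peptide released together with noradrenaline, went from 28.1 ± 8.45 to 0.166 ± 0.125 CPM and Chga, a core protein of dense vesicles, from 48.9 ± 34.4 to 0.887 ± 0.603 CPM. Slc18a1, the vesicular transporter of chromaffin cells, fell by 3.90 on the log2 scale.

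Of 10 receptor genes of sympathetic neurons 9 were called lower at E17, with a median of -3.70. Of 6 trophic and guidance ligands 4 were called lower and 1, Artn, higher, from 2.56 ± 1.07 to 12.2 ± 0.852 CPM. Artn encodes artemin, which acts on sympathetic precursors through Gfra3 and Ret. Of the 9 adrenergic receptor genes, through which target cells and the neurons themselves sense noradrenaline, 8 were tested, 6 were called lower and 1 higher. Their median was -2.06, or -1.42 with 2 genes that had no count at E17 set at their limit of 3 counts in the shallowest library.

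Markers of other neurons moved with the 7 genes. All 10 pan-neuronal markers were called lower at E17 with a median of -5.63, and their sum ran from 114 to 172 CPM there. Of 13 sensory neuron markers 12 were called lower, with a median of -5.03. The exception was Ntrk3, which went from 90.8 ± 23.2 to 316 ± 10.98 CPM and which Schwann cells also express. All 6 cholinergic and motor neuron markers were called lower, and 2 to 4 of them had no count in each E17 library. A list gene that passes the filter on low counts only through E13 has to differ there, so such calls are a description. The Schwann lineage markers went the other way, with 8 of 8 called higher. Among mast cell markers, 5 of 7 tested were called higher, with Cpa3 at 0.608 ± 0.202 CPM at E13 and 8.91 ± 12.6 CPM at E17 and Hdc at 0.653 ± 0.381 and 5.51 ± 7.59 CPM, while Kit held 47.9 ± 15.7 and 36.3 ± 0.809 CPM. E17 replicate 4 carried these means, and without it Cpa3 held 2.67 ± 2.35 CPM at E17 (n = 3) and was not called (edgeR, adjusted p = 0.0876), Hdc held 0.310 to 2.91 CPM with a mean of 1.75 CPM, and 3 of 8 markers tested were called higher. Among markers outside neurons, those of limb mesenchyme were called lower at E17 in 4 of 6 tested, of keratinocytes in 2 of 3 and of heart and gut mesenchyme in 1 of 2. The lower values at E17 thus covered markers of several neuron classes and of other tissues. The part of each in the fall of the 7 genes was not tested.

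Within the stripped sciatic nerve, from E17 to P60, the levels were low throughout, and 4 of the 7 genes changed among these 6 stages in a test over all of them (Hand2, adjusted p = 0.0102; Th, 0.00653; Dbh, 0.002; Slc6a2, 0.000285; edgeR quasi-likelihood test). The background of that test was 51.1% of all genes tested. Over all 7 stages 7 of the 7 genes were called, against 70.3% of genes. Each of the 7 had its highest stage mean at E13, as did 32.4% of genes. The stages of each gene were ordered by mean level and neighbours compared. For 6 genes E13 differed from the next stage and no later pair of neighbours was called. Neighbours in such an order are the closest pairs, so this says little of stages farther apart. For Slc6a2, E13 and P60 differed by the test (adjusted p = 5.54e-05) although their libraries overlapped, and no other pair of neighbours in its order was called.

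Stages farther apart did differ. All 7 genes were called lower at P5 than at E17 (edgeR), where 19.9% of genes were called and 9.07% as lower. The libraries of the 2 stages overlapped in Gata3, Th and Slc18a2. Phox2a, Hand2, Gata3 and Dbh had at most 3 counts in each P5 library, so the size of their change is poorly known. Th went from 0.672 to 0.0520 CPM (log2 fold change -3.69 ± 0.99, adjusted p = 0.00374), Slc18a2 from 0.724 to 0.147 CPM (-2.26 ± 0.85, adjusted p = 0.034) and Slc6a2 from 0.802 to 0.112 CPM (-2.94 ± 0.96, adjusted p = 0.0157). The count of 7 became 3 without P5 replicate 2, 4 without E17 replicate 3 and 4 without P5 replicate 4. At P14, 4 of the 7 were called lower than at E17, namely Hand2, Th, Dbh and Slc18a2, against 31.4% of genes called and 13.4% as lower.

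No member was called between E17 and P1 (edgeR), and none had an unadjusted p under 0.05, while 11.7% of all genes tested were called. DESeq2 and limma-voom called none either, but Th and Dbh were called with the replicate number as a block (adjusted p = 0.0341 and 0.0459) and Slc18a2 without P1 replicate 3 (adjusted p = 0.0221). The log2 fold changes, P1 minus E17, ran from -1.56 in Slc18a2 to -0.47 in Phox2a, with SE of 0.74 to 0.85. At P1 the libraries were again uneven. In replicates 1 to 4 Dbh held 0.0729, 0.125, 1.82 and 2.17 CPM. Th held 0, 0.0416, 0.474 and 0.465 CPM, and Hand2 held 0, 0.208, 0.911 and 0.683 CPM. Replicates 3 and 4 were highest in 6 of the 7 genes, Gata3 being the exception, and the same order held for 24.2% of all genes tested. After removal of the GC trend it held in 5 of 7 genes against 19.4% of genes. This order too was noticed in the values and not tested. The 7 genes summed to 0.656, 0.625, 4.85 and 4.78 CPM in these libraries, and the pan-neuronal markers to 49.9, 64.7, 81.2 and 84.1 CPM. The sensory neuron markers summed to 196, 179, 163 and 166 CPM. Most of that was Ntrk3, which averaged 170 CPM at P1 and which Schwann cells also express. The pan-neuronal sums were higher in the same 2 libraries, and their part in the result was not tested.

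The set reached its lowest summed level at P5, with 0.143 to 0.984 CPM over the 7 genes. Hand2 was the only member called between P1 and P5 (edgeR, adjusted p = 0.0479), where 5.84% of genes were called and 1.79% as lower. It had 52 counts over the P1 libraries and 3 over the P5 libraries, a ratio of 17.1 with a 95% interval of 5.53 to 85.5 that covers counting error only. The libraries overlapped, as P1 replicate 1 had no Hand2 count. The call was lost when any one P5 library, or P1 replicate 3 or 4, was left out. Dbh had 125 counts at P1 and 11 at P5, a ratio of 11.2 (95% counting interval 6.05 to 23.0), and did not pass (adjusted p = 0.0539).

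Gata3 was the only member called between P5 and P14 (edgeR, adjusted p = 0.0237), where 12% of genes were called and 7.11% as higher. It had 2 counts over the P5 libraries, both in replicate 3, and 17 over the P14 libraries, a ratio of 10.6 (95% counting interval 2.51 to 94.3). The call was lost when P5 replicate 1, 2 or 4 or P14 replicate 3 was left out. T cell and innate lymphoid markers had 1 gene of 3 tested called higher in this comparison, Il1rl1, at 2.54 CPM at P14, and its part in the Gata3 value was not tested. No member was called between P14 and P24, against 2.65% of genes, or between P24 and P60, against 5.96% (edgeR). At an unadjusted p under 0.05 there were 0 members in the first and 1 in the second, Th, with 0, 0, 0.0494 and 0.113 CPM at P24 and 0.146, 0.435, 0.249 and 0.565 CPM at P60, which do not overlap. DESeq2 and limma-voom called none in either.

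Slc6a2 was measured above its level at P1 in each P60 library. Its 4 libraries held 0.255, 0.208, 0.474 and 0.776 CPM at P1 and 0.167, 0, 0.171 and 0.11 CPM at P5. At P14 they held 0.409, 0.735, 0.204 and 0.646 CPM. At P24 they held 1.34, 0.889, 1.63 and 1.73 CPM. All P24 libraries lay above all P14 libraries, which held for 7.24% of genes tested. At P60 the libraries held 3.36, 2.03, 2.55 and 3.27 CPM, and the lowest of them lay above the highest of P24, as did those of 12.5% of genes. The means were 0.428 ± 0.259 CPM at P1, 0.112 ± 0.0797 CPM at P5, 0.498 ± 0.239 CPM at P14, 1.40 ± 0.377 CPM at P24 and 2.80 ± 0.629 CPM at P60 (n = 4 each).

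**Figure D5:**
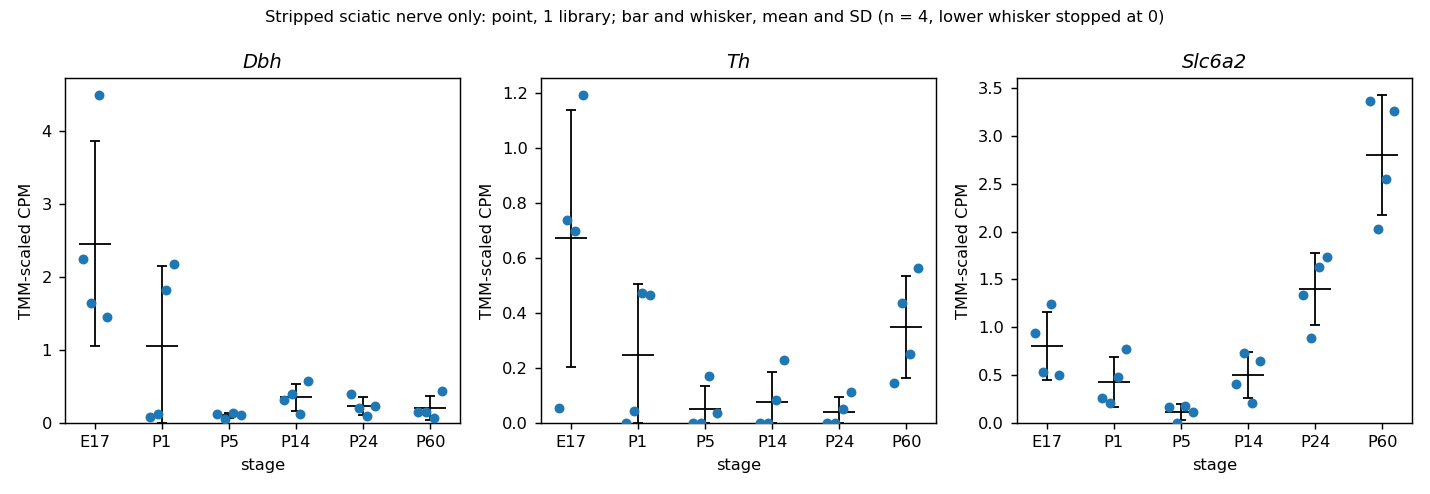
Dbh, Th and Slc6a2 in the stripped sciatic nerve from E17 to P60, as TMM-scaled CPM on linear axes that differ between panels, with libraries as points and mean ± SD (n = 4) as bars with whiskers. Slc6a2 ran from 0.112 CPM at P5 to 2.80 CPM at P60 while Dbh stayed at or under 0.349 CPM on average from P5 on.

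Between P1 and P60 Slc6a2 rose by a log2 fold change of 2.66 ± 0.71 (SE; edgeR, adjusted p = 0.00199), a 6.31-fold higher level, with all P60 libraries above all P1 libraries, which held for 30.3% of genes. It was the only one of the 7 called in this comparison, in which 35.5% of genes were called and 20.3% as higher, and the median of the 7 was -0.20 against -0.02 for all genes. From P14 to P60 it rose by 2.50 ± 0.72 (adjusted p = 0.00905; edgeR), again as the only member called, against 12.9% of genes. The single steps from P14 to P24 (adjusted p = 0.312) and from P24 to P60 (adjusted p = 0.351) were not called in the fit over all stages, although neither pair overlapped. In a fit without the E13 libraries the step from P14 to P24 was called (edgeR, adjusted p = 0.0261). Against E17, the P60 level was higher by 1.76 ± 0.68 on the log2 scale (adjusted p = 0.0262), in a comparison in which 39.7% of genes were called and Dbh was called lower (-3.61 ± 1.14, adjusted p = 0.0074). That call of Slc6a2 was lost without E17 replicate 2 or 4 or P60 replicate 1 or 4. The other members gave P60 minus P1 differences between -2.39 in Dbh and 0.88 in Gata3, with Th at 0.45 ± 0.86, and Phox2a had 28 counts at P1 and 3 at P60. Dbh had 125 counts at P1 and 12 at P60, and its libraries overlapped (adjusted p = 0.0946).

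Against P5, the stage with the lowest sum of the set, 3 of the 7 genes were called higher at P60 (edgeR), a comparison chosen after the values were seen, where 26.7% of genes were called and 15.4% as higher. Slc6a2 had 11 counts over the P5 libraries and 167 over those of P60, a log2 fold change of 4.70 ± 0.88 (adjusted p = 5.7e-05). Th had 5 and 21 counts (2.79 ± 1.16, adjusted p = 0.0452). Gata3 had 2 and 10 counts, a ratio of 9.21 with a 95% counting interval of 1.96 to 86.4 (adjusted p = 0.0309). The calls of Th and Gata3 were both lost without P5 replicate 1, 2 or 4 or P60 replicate 2 or 4, while that of Slc6a2 was kept without each library in turn. At P24, Slc6a2 was already called higher than at P5 (3.71 ± 0.91, adjusted p = 0.00171), as was Gata3 (adjusted p = 0.0453), against 18.8% of genes. That call of Gata3 was lost without P5 replicate 1, 2 or 4 or P24 replicate 1 or 4. Markers of T cells and innate lymphoid cells, another source of Gata3, summed to 0.808 to 1.92 CPM at P5. They summed to 3.66 to 5.61 CPM at P24 and 2.92 to 6.94 CPM at P60, and their part in the Gata3 calls was not tested.

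Genes of the pathway outside the 7 moved in different directions between P1 and P60. Of 8 adrenergic receptor genes tested 7 were called higher, with a median of 2.49 against -0.02 for all genes. Adra2a went from 5.57 ± 1.63 to 20.7 ± 0.794 CPM. The receptor genes of sympathetic neurons, a list that shares 2 genes with the adrenergic receptors, had 4 of 10 called higher and 2 lower, with a median of -0.10, and among them Ret was higher by 2.74 and Gfra3 fell by 2.71 on the log2 scale. Of 6 trophic and guidance ligands 3 were called higher and 2 lower, one of the latter being Artn. Adrb3, the receptor of fat cells, went from 0.104 ± 0.0757 to 3.03 ± 2.14 CPM. Among synthesis genes 2 of 7 tested were called higher, Cyb561 and Gch1, which makes the cofactor of Th and is also used by endothelial and immune cells. Ddc held 1.85 ± 0.708 CPM at P1 and 0.859 ± 0.393 CPM at P60 and did not pass (adjusted p = 0.0896). Of the 7 further transcription factors Gata2 was called higher, from 0.464 ± 0.219 to 5.52 ± 1.72 CPM, and Insm1 lower, from 0.207 ± 0.0453 CPM to 0 counts. The median of that list was -2.54 as fitted, and 0.81 without the 4 genes that had no count at P60 and whose P1 means lay under 3 counts in the shallowest P60 library, so its sign rests on genes without counts.

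Among storage genes 2 of 9 were called higher from P1 to P60. That share, like the 2 of 7 among synthesis genes, is near the 20.3% of all genes tested. The 2 storage genes were Snap25, a fusion protein of many synapses, from 1.70 ± 0.672 to 8.45 ± 2.21 CPM, and Chga, from 0.323 ± 0.267 to 1.24 ± 0.560 CPM. Npy was not called, with 15 counts at P1 and 5 at P60. Of the pan-neuronal markers 4 of 10 rose too, among them Stmn2, from 6.29 ± 2.73 to 26.8 ± 4.35 CPM, and Uchl1, from 14.6 ± 4.42 to 72.6 ± 11.7 CPM. Of the sensory neuron markers 5 of 13 were called higher, among them Calca and Trpv1, and 1 lower, Ntrk3. The sum of the pan-neuronal markers ran from 49.9 to 84.1 CPM at P1 and from 137 to 171 CPM at P60. The part of these neuronal markers in the Slc6a2 rise was not tested. Mast cell markers were called higher in 6 of 7 tested, and their sum ran from 17.45 to 30.3 CPM at P1 and from 28.4 to 46.8 CPM at P60. Keratinocyte markers, of which 3 of 6 were tested, were called higher in 2, and their sum ran from 0.219 to 0.465 CPM at P1 and from 8.35 to 46.8 CPM at P60. Most of that sum was Perp, a membrane protein of epithelial junctions, at 7.40 to 45.9 CPM, while the 3 keratins of the list had 1 count in all at P60. In P24 replicates 1 to 4 the list summed to 24.2, 6.43, 30.5 and 38.4 CPM, which puts the libraries in the same order as Slc6a2. At P60 it summed to 46.8, 8.35, 29.2 and 28.9 CPM, with the highest and the lowest library the same as for Slc6a2. The mast cell list gave the same matches, with 10.6, 6.85, 16 and 18.6 CPM at P24 and 46.8, 28.4, 45.1 and 44.4 CPM at P60. These orders were noticed in the values, and how often other genes show them was not computed. Both tested heart and gut mesenchyme markers were called higher as well. Of 8 Schwann lineage markers 4 were called higher and 1 lower, and of 6 limb mesenchyme markers tested 2 were called higher and 1 lower. T cell and innate lymphoid markers had 1 of 3 tested called higher, and their sum ran from 0.437 to 1.24 CPM at P1 and from 2.92 to 6.94 CPM at P60. The part of the mast cell, keratinocyte, mesenchyme, Schwann lineage and lymphoid markers in the Slc6a2 rise was not tested either.

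The resemblance of stage profiles was described by the root mean square difference between centred log2 stage means over 7 stages, among 14381 candidate genes whose highest stage mean reached 1 CPM. It is a description over 7 points that share libraries. Among the genes most like Dbh were Tfap2b (0.435) and Slc7a14 (0.46). Those most like Phox2a were Nrsn2 (0.202), Hoxd11 (0.221) and Unc5d (0.265), and those most like Hand2 were Hs3st4 (0.315), Scg2 (0.358) and Cnr1 (0.378). Elmod1 (0.251) came first for Gata3 and Tmem169 (0.114) for Slc18a2. Slc6a2 was most like Igsf21 (0.298), Snap25 (0.41) and Clstn2 (0.452). Among the 7 genes themselves, Phox2a and Hand2 were closest (0.417), and Slc6a2 lay 0.939 to 1.77 from each of the other 6.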

How the data were processed

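Poly-A RNA of 28 libraries, 4 at each of 7 stages, was prepared by the authors with a stranded kit, and the reads were trimmed, aligned with STAR 2.6.1c and counted per gene with featureCounts. The deposited values are raw read counts per gene, not normalized by the authors. The submitters' processing notes name the build GRCm38.p5, whereas the methods print a human build name. The strand and multi-mapping settings of the counting are not given in the sources used here. Of 41605 gene identifiers 41519 were matched to GENCODE M21, which supplied symbols, coordinates and GC content. The members and the lists were chosen with earlier results of these data known.

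Genes were kept by edgeR's filterByExpr by stage (17700 genes), scaled by TMM and tested in 1 quasi-likelihood fit of all 28 libraries with stage as the only term (edgeR 4.0.16, R 4.3.3, robust glmQLFit, common dispersion 0.0439). The standard error was the log2 fold change over the square root of its F statistic. Genes were called at a Benjamini-Hochberg adjusted p under 0.05 over all genes tested and at least a 2-fold change, and the p-values measure the spread between samples that the study describes as independent. The fit was tested on simulated data for P60 against P1, where 196 of 200 changed genes among 17118 were recovered with 5 false calls. The changed genes were drawn from those with higher expected counts than the members mostly held at P1 and P60. The recovery therefore does not carry over to genes of a few counts. Total counts ran from 13899895 to 37662780 per library, so that genes of a few counts are limited by depth, and counting intervals and limits cover counting error only. No 2 replicates agreed within counting noise (chi-square per degree of freedom 5.21 to 293 over 42 pairs). GC trends were fitted by lowess on 10028 genes. Alternatives used DESeq2 1.42.0 (for tests over stages, its likelihood ratio test in place of the Wald test), limma-voom 3.58.1, other scalings and filters, a replicate block, fewer libraries and each library left out. Leaving out E13 replicates 1 and 4 together and leaving out all E13 libraries from later pairs were added after seeing the data, as were 6 comparisons of stages that do not follow each other.

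All 7 members are named. Named list genes were those called in a comparison in which a member was called, at most 4 per list by level and with at least 1 CPM in the higher stage, and Ddc, Slc18a1, Pnmt, Chga, Npy, Kit, Cpa3, Hdc and further genes of related function whatever they did. The values of some genes that the rules name are not reported here. Hand1, Insm1, Spr, Qdpr and the genes that overlap members were named after their values were seen. Of the 17 lists, those for keratinocytes, limb mesenchyme and heart and gut mesenchyme had 2 of 3, 4 of 6 and 1 of 2 tested genes called lower at E17. Likeness used a prior count of 2.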

Additional observations from a re-analysis of the deposited data

Results flagged for a closer look

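In 6 of 49 groups of 4 libraries 1 library stood apart from the other 3 by Dixon's criterion, and chance alone flags about 1 in 20 groups of normally distributed values. That rate was not computed for counts as low and tied as these. Phox2a was at 0 CPM in P5 replicate 2 and at 0 CPM in P60 replicate 3, where the other libraries of the stage held 1 count each. Hand2 was at 0.076 CPM in P14 replicate 4, with 2 counts against 0 in the others, and at 0.471 CPM in P24 replicate 2, with 9 counts against 0 to 2. Gata3 was at 0.0856 CPM in P5 replicate 3, with 2 counts against 0. Slc18a2 was at 0.342 CPM in P14 replicate 4, with 9 counts against 0 or 1.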

How the results depend on the processing

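All 7 members stayed called lower at E17 than at E13 under each alternative run. This is a description, as Phox2a, Gata3 and Slc18a2 passed the filter on low counts only through E13 libraries. Slc6a2 stayed called higher at P60 than at P1 under each alternative run, with log2 fold changes of 2.44 to 3.15. Slc6a2 stayed called higher at P24 than at P5 under 18 of 18 alternatives (log2 fold changes of 3.20 to 4.41). The counts of members called between neighbouring stages after E17 rested on few counts and moved with several settings, and the cause was not tested except where fewer libraries were fitted. Between E17 and P1, 0 to 1 members were called with each library left out (Slc18a2 without P1 replicate 3). Between P1 and P5 the count of 1 became 2 with library size only, 0 without a filter on low counts, 3 with DESeq2, 0 with limma-voom, 2 with the GC trend removed, 3 without the E13 libraries and 0 to 2 with each library left out. Between P5 and P14 it became 2 with DESeq2 and 0 to 1 with each library left out. Between P14 and P24 it was 1, Slc6a2, with only the compared stages and also 1 without the E13 libraries, and between P24 and P60 it was 1, Slc6a2, with only the compared stages. Between P1 and P60 it became 2 (Dbh and Slc6a2) with DESeq2 and 2 without the E13 libraries. Without the E13 libraries 4 members passed the filter on low counts (not Phox2a, Gata3 or Slc18a2), and with only the compared stages 0 to 2 did from P5 on, so lower counts under these settings are partly members no longer tested; no member could be tested in this way between P1 and P5 or between P5 and P14. The comparisons of stages farther apart were added after seeing the data. Between E17 and P5 the count of 7 became 2 of 2 tested with only the compared stages, 4 of 4 tested without the E13 libraries and 3 to 7 with each library left out, and between E17 and P14 the count of 4 became 1 of 2 tested with only the compared stages (3 to 4 with each library left out). Between E17 and P60 the count of 2 became 1 with limma-voom and 1 to 3 with each library left out, and the Slc6a2 call there was lost with library size only (log2 fold change 1.45). Between P5 and P24 the count of 2 became 1 with library size only, without a filter on low counts, with only the compared stages (1 tested) and without the E13 libraries, and 1 to 2 with each library left out. Between P5 and P60 the count of 3 became 1 of 1 tested with only the compared stages and 1 to 3 with each library left out. Over E17 to P60, 3 to 6 members were called. The log2 change of Phox2a from E17 to P1, -0.47, turned to 0.018 without E17 replicate 3 (range with each library left out -0.86 to 0.018). That of Slc18a2 from P1 to P60, -0.20, turned to 0.70 with limma-voom and ran from -0.58 to 1.08 with each library left out. None of these passed the threshold in either direction.

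Replicate numbers are shared across stages, but the samples are different animals. The deviations of same-numbered libraries from their stage means correlated at -0.0593 to 0.292 across genes, so the numbers were not taken to pair the samples. With the replicate number as a block, 2 members (Th and Dbh) were called between E17 and P1, 3 (Phox2a, Hand2 and Dbh) between P1 and P5 and 1 (Th) between P24 and P60, 4 (Phox2a, Hand2, Dbh and Slc6a2) between E17 and P60 and 2 (Th and Slc6a2) between P14 and P60. Depth limits all 7 members from P5 to P14, with at most 17 counts in a library, and from P24 on each member but Slc6a2, with at most 9.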
